A study of Arabidopsis thaliana with 6 samples.

Results

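The enzymes that make jasmonate were followed through 10 genes of the 27655 listed, picked out by their locus identifiers. They were the lipoxygenase genes LOX2, LOX3, LOX4 and LOX6, the allene oxide synthase gene AOS, the allene oxide cyclase genes AOC1, AOC2, AOC3 and AOC4, and the reductase gene OPR3. RNA-seq had been carried out on whole Arabidopsis thaliana seedlings 10 days old, kept at 22 °C in cycles of 16 h light and 8 h dark. There were 3 libraries of wild type plants (Col) and 3 of the line h3.3ko;HTR5, whose name joins a knockout of the histone variant H3.3 with HTR5, an H3.3 gene. The labels do not state how that line was built or how many independent lines it stands for. The question asked of these genes was whether their transcript levels differed between h3.3ko;HTR5 and Col.

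Jasmonate is a hormone of wounding, defence and stamen development. In the chloroplast, lipoxygenases oxygenate linolenic acid, allene oxide synthase dehydrates the product, and allene oxide cyclase closes the ring to give oxophytodienoic acid (OPDA). OPDA moves to the peroxisome, where OPR3 reduces it and beta-oxidation shortens it to jasmonic acid. The conjugate with isoleucine is the active hormone. It binds the receptor COI1 and the JAZ repressors, which are then destroyed. The freed MYC transcription factors switch on jasmonate responses, among them several synthesis genes themselves.

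Transcripts of LOX2, AOS and the 3 cyclase genes that neighbour each other on chromosome 3 were lower in h3.3ko;HTR5 than in wild type. These 5 genes, LOX2, AOS, AOC1, AOC2 and AOC3, fell by 25.3% (AOS) to 52.3% (AOC2) on the group means. LOX3, LOX4, LOX6, AOC4 and OPR3 did not pass the test. Thus 5 of the 10 genes were called lower and 0 higher (limma, with a Benjamini-Hochberg adjusted p under 0.05 over all tested genes, two-sided). Of all 19013 genes tested, 12.0% were called, 8.32% as lower and 3.70% as higher. Of the 5 genes not called, 3 (LOX4, LOX6 and AOC4) had an unadjusted p under 0.05, all with higher means in the line. Of all tested genes, 8.93% had such a p with a higher level in the line and 17.9% with a lower level. The median log2 fold change of the 10 genes was -0.22, and that of all tested genes -0.034. In a whole-seedling sample, fewer cells that express a gene and less RNA per cell cannot be told apart.

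**Figure D1:**
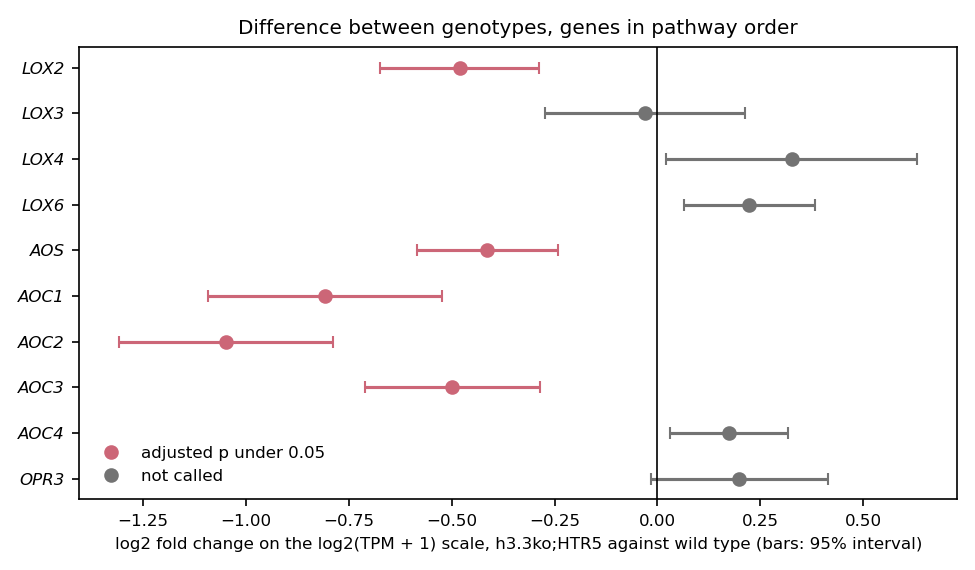
Log2 fold change of each of the 10 genes in h3.3ko;HTR5 against wild type, on the log2(TPM + 1) scale, in pathway order from the lipoxygenases at the top to OPR3 at the bottom. Points are limma estimates and bars their 95% intervals, and coloured points have an adjusted p under 0.05. The 5 coloured genes lie between -0.41 and -1.05, and the other 5 between -0.03 and 0.33.

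Values are the deposited TPM, which scale reads by gene length and library total, and each library held 13792031 to 14498093 recovered reads. HTR8, an H3.3 gene, stood at 289 to 323 TPM in wild type and at 3.19 to 5.2 TPM in h3.3ko;HTR5. The levels of HTR4 and HTR5 in the line were lower but not near 0, at 148 to 155 TPM (309 to 331 in wild type) and 289.7 to 298 TPM (403 to 423 in wild type). The shoot marker RBCS1A, a Rubisco subunit gene, was at 21599 to 22945 TPM in wild type and 23488 to 24443 TPM in h3.3ko;HTR5. The root marker PYK10 was at 1927 to 1947 TPM in wild type and 1708 to 1881 TPM in the line. The groups of each did not overlap, as in 31.2% of all tested genes, and neither was called (limma adjusted p = 0.0954 and 0.0786). All 4 flower markers, AP1, AP3, PI and AG, were at or near 0, and none was tested. They summed to 0.746 to 1.17 TPM in wild type and 0.184 to 0.321 TPM in h3.3ko;HTR5. Most of each sum was PI, at 0.607 to 0.979 TPM in wild type and 0.119 to 0.243 TPM in the line. AP3 was listed at 0 in all 3 libraries of the line. The 3 seed storage and oil body markers summed to 0.381 to 1.14 TPM in wild type and 1.36 to 8.2 TPM in h3.3ko;HTR5. Only CRA1 was expressed enough to be tested, and it was called higher. A list of 10 rapid stress and touch genes had 6 called lower and 1, TCH4, called higher. Its median log2 fold change was -1.49, and 8 of its 10 genes were highest in wild type replicate 1. Of all tested genes, 8.32% were called lower and 3.70% higher. Of 9 shoot and root markers 1, the light-harvesting gene LHCB1.2, was called, as higher. The part of these markers in the results was not tested. Nothing in the labels ties the libraries of a genotype to separate plantings, so a p-value here reflects only the spread between libraries, which may be technical.

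All 10 genes lie on nuclear chromosomes of the TAIR10.1 reference, and none overlaps another annotated gene. LOX2 (AT3G45140) is on chromosome 3 from 16525245 to 16529352. AOS (AT5G42650), a single-exon gene, is on chromosome 5 from 17097564 to 17099595. AOC1 (AT3G25760, 9403779 to 9405338), AOC2 (AT3G25770, 9406669 to 9408071) and AOC3 (AT3G25780, 9409160 to 9411090) stand in a row on the plus strand of chromosome 3, with gaps of 1330 and 1088 bp. AOC4 (AT1G13280) is on chromosome 1 from 4547388 to 4548894. LOX3 (AT1G17420, 5977323 to 5981521), LOX6 (AT1G67560, 25319804 to 25324581) and LOX4 (AT1G72520, 27308513 to 27312756) are on chromosome 1 as well, and OPR3 (AT2G06050) is on chromosome 2 from 2359114 to 2362375.

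Related genes shared few exact stretches. AOC1 and AOC2 share 90.3% of aligned coding bases, AOC1 and AOC3 82.7%, and AOC4 72.8% to 80.2% with the other 3. Of the exon windows of 50 bases, 2.20% in AOC1, 0.0832% in AOC2 and 1.6% in AOC3 occur elsewhere in the genome, and none in AOC4. LOX3 and LOX4 share 80.7% of coding bases, against 59.1% to 61.5% in the other lipoxygenase pairs, and none of their windows recur. LOX6 had 0.621% of windows elsewhere, and LOX2, AOS and OPR3 had none.

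The start regions of the 5 genes that fell are shown with that of AOC4, the cyclase gene that did not, because these are the stretches where transcription of each begins. Each run of 300 bases is read from the TAIR10.1 genome on the gene's own strand, 5′ to 3′, from 250 bases before the annotated start to 50 bases after it. Capitals mark CACGTG (the G-box, the core site of MYC factors) and its variants CACATG and AACGTG, searched on both strands, so that CATGTG and CACGTT are marked as well. Each window shown holds at most 1 match.
LOX2 (chr3:16524995-16525294, plus strand): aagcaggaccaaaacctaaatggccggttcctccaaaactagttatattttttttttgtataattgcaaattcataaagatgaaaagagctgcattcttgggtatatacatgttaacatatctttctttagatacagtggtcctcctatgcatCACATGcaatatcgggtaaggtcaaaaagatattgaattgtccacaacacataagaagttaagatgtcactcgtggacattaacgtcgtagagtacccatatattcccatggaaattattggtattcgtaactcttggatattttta
AOS (chr5:17099546-17099845, minus strand): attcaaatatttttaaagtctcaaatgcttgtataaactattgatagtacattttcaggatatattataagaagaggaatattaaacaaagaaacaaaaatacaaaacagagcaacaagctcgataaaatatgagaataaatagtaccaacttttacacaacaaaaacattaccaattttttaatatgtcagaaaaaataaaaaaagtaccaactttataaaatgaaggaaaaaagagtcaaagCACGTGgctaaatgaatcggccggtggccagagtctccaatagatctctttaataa
AOC1 (chr3:9403529-9403828, plus strand): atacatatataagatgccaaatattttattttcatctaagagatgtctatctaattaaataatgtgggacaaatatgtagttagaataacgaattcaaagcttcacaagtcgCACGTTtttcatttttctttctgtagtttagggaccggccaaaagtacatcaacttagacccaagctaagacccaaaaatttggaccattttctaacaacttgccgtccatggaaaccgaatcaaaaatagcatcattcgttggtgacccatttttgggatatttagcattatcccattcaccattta
AOC2 (chr3:9406419-9406718, plus strand): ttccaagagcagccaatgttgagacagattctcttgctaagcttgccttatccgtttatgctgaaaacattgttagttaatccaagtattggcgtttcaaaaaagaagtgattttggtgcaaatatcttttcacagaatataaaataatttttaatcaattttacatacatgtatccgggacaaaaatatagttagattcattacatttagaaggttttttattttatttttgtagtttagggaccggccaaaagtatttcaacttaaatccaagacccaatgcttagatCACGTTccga
AOC3 (chr3:9408910-9409209, plus strand): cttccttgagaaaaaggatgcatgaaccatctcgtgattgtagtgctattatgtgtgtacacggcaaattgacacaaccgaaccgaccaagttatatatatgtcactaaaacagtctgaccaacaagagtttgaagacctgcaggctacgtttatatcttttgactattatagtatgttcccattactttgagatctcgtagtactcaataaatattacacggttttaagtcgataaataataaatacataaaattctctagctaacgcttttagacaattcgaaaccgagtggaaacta
AOC4 (chr1:4547138-4547437, plus strand): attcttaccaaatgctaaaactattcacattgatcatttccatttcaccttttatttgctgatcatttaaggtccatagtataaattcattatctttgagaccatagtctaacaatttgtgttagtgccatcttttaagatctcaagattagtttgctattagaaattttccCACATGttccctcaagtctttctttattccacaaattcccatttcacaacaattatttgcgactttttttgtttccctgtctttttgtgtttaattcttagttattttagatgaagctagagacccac
The G-box stood in AOS alone of the 10 genes, with its first base 6 bases before the start, and in 7.68% of the same windows of 27443 protein-coding genes. CACATG stood in LOX2, LOX3 and AOC4, against 12.9% of windows, and AACGTG in LOX3, LOX4, AOC1 and AOC2, against 8.95%. A match to any of the 3 motifs was thus found in 4 of the 5 genes that fell and in 3 of the 5 that did not. The share of all windows with any of the 3 was not counted, and neither count was set against it. These letter matches are a description and do not show that a factor binds.

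AOC1 and AOC2 also share the longest run among the 45 pairs of these windows. It is the 26 bases TGTAGTTTAGGGACCGGCCAAAAGTA, at -117 to -92 in AOC1 and from -19 to 7 in AOC2, and it was found in 2 of the 27443 windows, these 2 alone. The median longest run over the pairs was 9 bases. The next longest, 16 bases, was that of LOX3 and LOX4.

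LOX2 makes most of the jasmonate that leaves form after wounding, and it fell. Wild type replicates 1, 2 and 3 had 138, 144 and 110.5 TPM, and replicates 1, 2 and 3 of h3.3ko;HTR5 had 90.8, 94.8 and 93.4 TPM. All 3 wild type values were above all 3 values of the line, and wild type replicate 3 was the nearest to them. The means were 131 ± 18.1 and 93.0 ± 2.05 TPM (SD, n = 3 each), with a log2 fold change of -0.48 ± 0.09 (SE, limma adjusted p = 0.00601). Between 2404 and 3744 reads per library stood behind these values.

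LOX3, LOX4 and LOX6 were not called. LOX3 and LOX4, which act together in stamen development and fertility, were the lowest of the 10 genes in exon-length TPM. LOX3 stood at 5.41, 5.32 and 5.59 TPM in the wild type libraries, against 4.99, 5.09 and 5.89 TPM in those of the line. Its groups overlapped, and its log2 fold change of -0.03 (95% interval -0.27 to 0.21, limma adjusted p = 0.899) changed sign with the scaling, being 0.03 after quantile normalization. LOX4 stood at 2.73, 2.09 and 2.52 TPM against 3.51, 3.21 and 3.21 TPM, on 56 to 96 reads per library. Every value of the line was above every wild type value, with a log2 fold change of 0.33 (95% interval 0.02 to 0.63) that did not pass the adjusted test (unadjusted p = 0.0384, limma adjusted p = 0.158). LOX6, known for the first, fast jasmonate pulse away from a wound, stood at 15.7, 16.0 and 15.9 TPM against 18.5, 17.8 and 19.6 TPM. Its groups did not overlap either, with the line higher. Its log2 fold change of 0.22 ± 0.07 missed the threshold (SE, limma adjusted p = 0.0731) and passed it with voom on recovered reads (adjusted p = 0.0197) and after median-of-ratios scaling (adjusted p = 0.0438).

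AOS, the only allene oxide synthase gene of Arabidopsis and so a step that every product of the pathway passes, fell. It stood at 253, 227 and 199.9 TPM in the wild type libraries, against 161, 178 and 169 TPM in those of the line. The groups were apart, and again wild type replicate 3 was the lowest of its group. The means were 227 ± 26.7 and 169 ± 8.31 TPM (SD, n = 3 each), with a log2 fold change of -0.41 ± 0.08 (SE, limma adjusted p = 0.00723). This call was lost without a trend in limma's variance prior (adjusted p = 0.0529).

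**Figure D2:**
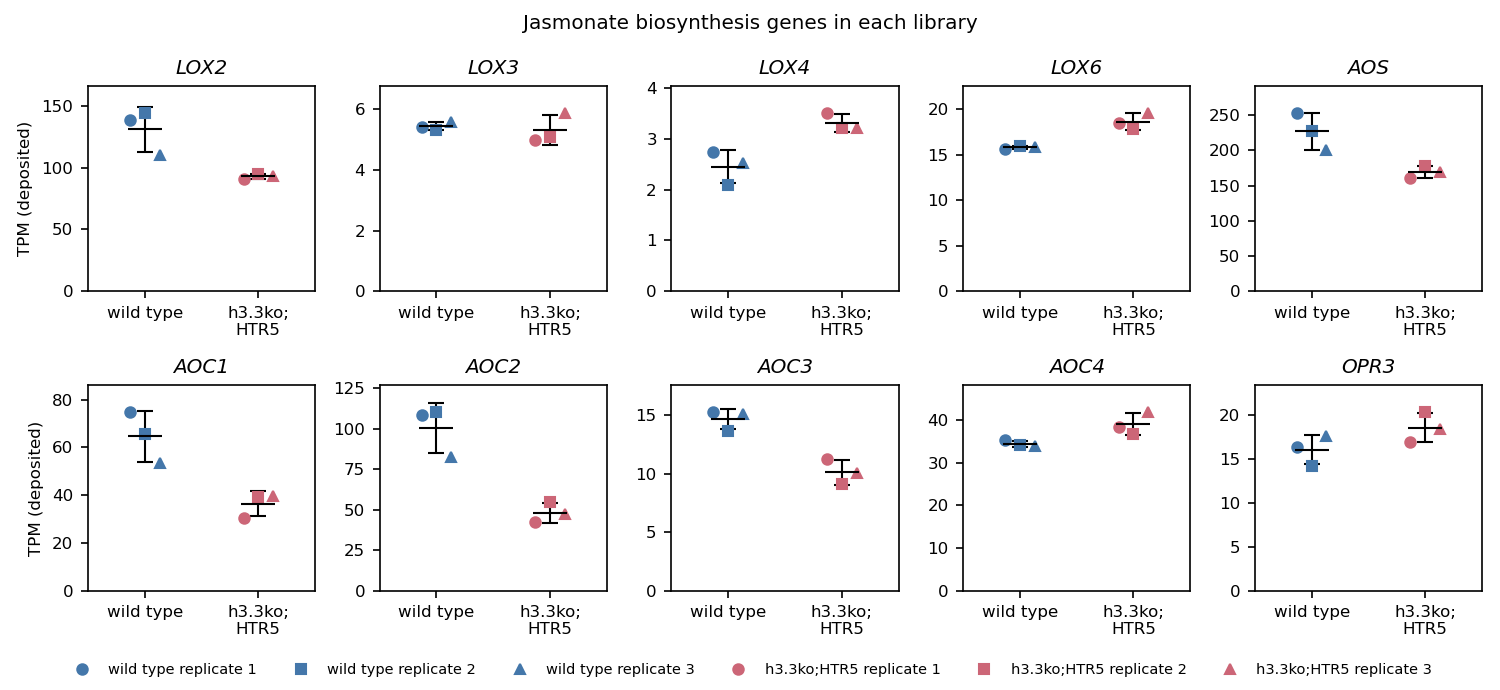
Deposited TPM of the 10 genes in each of the 6 libraries, with a separate vertical axis from 0 for each gene. Symbols are libraries (circle, square and triangle for replicates 1, 2 and 3), horizontal lines group means and bars SD (n = 3). LOX2, AOS, AOC1, AOC2 and AOC3 show all h3.3ko;HTR5 libraries under all wild type libraries, while LOX4, LOX6 and AOC4 show them above.

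Allene oxide cyclase sets the handedness of OPDA, and AOC2 and AOC1 gave the 2 largest log2 fold changes of the 10 genes. AOC2 stood at 108, 110.3 and 82.8 TPM in the wild type libraries, against 42.1, 54.6 and 47.1 TPM in those of the line. The groups were far apart, the lowest wild type value lying well above the highest of the line. Its means were 100.4 ± 15.3 and 47.9 ± 6.26 TPM (SD, n = 3 each), 2.1-fold lower, with a log2 fold change of -1.05 ± 0.12 (SE, limma adjusted p = 0.000547). Of the 19013 tested genes 0.757% had a lower log2 fold change.

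AOC1, also listed as ERD12 for its early response to dehydration, stood at 74.8, 65.5 and 53.6 TPM against 30.2, 39.4 and 39.7 TPM. The groups did not overlap, with replicate 1 the highest library in wild type and the lowest in the line. Its log2 fold change was -0.81 ± 0.13 (SE, limma adjusted p = 0.00322), a fall of 43.6% on the means. AOC3, the scarcest cyclase in exon-length TPM too, stood at 15.3, 13.7 and 15.1 TPM against 11.2, 9.11 and 10.1 TPM. Its groups were apart as well, and its wild type replicate 3 was not low. Its log2 fold change was -0.50 ± 0.10 (SE, limma adjusted p = 0.00839).

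AOC4, on chromosome 1, was not called. It stood at 35.3, 34.2 and 34.0 TPM in the wild type libraries, against 38.5, 36.8 and 41.9 TPM in those of the line. Every value of the line was above every wild type value. The log2 fold change of 0.17 (95% interval 0.03 to 0.32) did not pass the adjusted test (unadjusted p = 0.0219, limma adjusted p = 0.113).

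AOC4 made up more of the cyclase transcripts in every library of the line than in any wild type library. With TPM recomputed from exon length, which allows levels of different genes to be compared, the 4 cyclase genes summed to 207, 197 and 164 TPM in wild type and to 108, 124 and 123 TPM in h3.3ko;HTR5. AOC4 made up 14.5%, 14.8% and 17.7% of that sum in wild type and 30.6%, 25.4% and 29.1% in the line. The AOC2 share went the other way, from 42.9%, 45.9% and 41.5% to 32.2%, 36.3% and 31.4%. Neither share overlapped between the groups. The exact two-sided permutation test gave p = 0.1 for the sum and for each of these 2 shares, the smallest value that 3 libraries against 3 allow. The AOC1 share did not overlap either, at 36.0%, 33.1% and 32.6% in wild type and 28.0%, 31.8% and 32.2% in the line (exact permutation p = 0.1). The AOC3 share overlapped (exact permutation p = 0.6). Shares within a sum are not independent of each other.

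**Figure D3:**
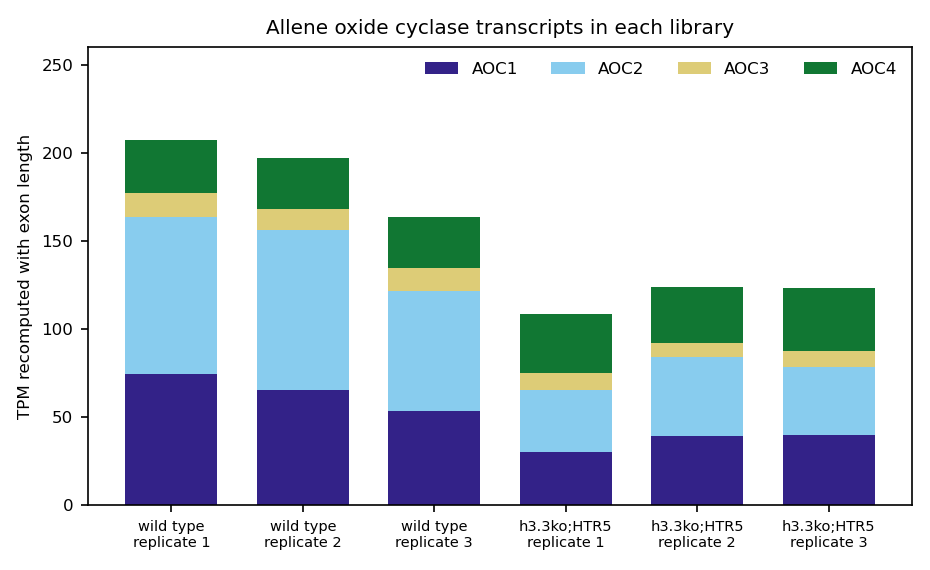
TPM of AOC1 to AOC4, recomputed with exon length, stacked for each of the 6 libraries from 0. The stacks reach 164 to 207 TPM in wild type and 108 to 124 TPM in h3.3ko;HTR5, and the AOC4 segment at the top does not shrink with them.

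OPR3, which reduces OPDA in the peroxisome and is required for pollen release, was not called. It stood at 16.4, 14.2 and 17.6 TPM in the wild type libraries, against 17.0, 20.4 and 18.4 TPM in those of the line. The groups overlapped, and the log2 fold change of 0.20 (95% interval -0.02 to 0.41) did not pass the test (limma adjusted p = 0.222).

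Of the 10 genes, 5 had groups that did not overlap with the line lower and 3 with the line higher. Over all tested genes these shares were 20.4% and 10.8%. The spread between wild type libraries was itself uneven among the genes. The coefficient of variation in wild type ran from 5.97% (AOC3) to 16.5% (AOC1) in the 5 genes that fell and from 1.04% (LOX6) to 13.4% (LOX4) in the other 5, so the called and uncalled genes overlapped in it. In LOX2, AOS, AOC1 and AOC2 the lowest wild type library was replicate 3, which thus lay nearest to the line. With that library left out, the 4 log2 fold changes came to -0.60, -0.50, -0.93 and -1.18, in the same order. Wild type replicate 1 was the highest library in AOS, AOC1 and AOC3, and it was also the highest for most rapid stress genes, whose summed level was 815 TPM there, 467 and 499 TPM in the other wild type libraries and 512 to 544 TPM in h3.3ko;HTR5. Much of the line's sum was TCH4, a cell wall enzyme gene, and the other 9 genes summed to 520.1, 347 and 274 TPM in wild type and to 208, 165 and 171 TPM in the line. Without wild type replicate 1 all 5 calls held, with log2 fold changes of -0.33 for AOS to -0.99 for AOC2.

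On the exon-length scale AOS was the most abundant of the 10 transcripts in both genotypes, at 173 ± 20.3 TPM in wild type and 129 ± 6.04 TPM in h3.3ko;HTR5 (SD, n = 3 each). LOX2 came next, at 126 ± 17.4 and 89.7 ± 1.77 TPM, then AOC2 and AOC1, whose ranges overlapped in both genotypes. In wild type AOC1, at 64.4 ± 10.6 TPM, stood well above AOC4, at 29.4 ± 0.588 TPM. In the line their ranges overlapped, at 36.4 ± 5.31 and 33.5 ± 2.27 TPM. OPR3, LOX6, AOC3, LOX3 and LOX4 followed in that order in both genotypes, each apart from the next, down to 2.60 ± 0.346 and 3.52 ± 0.189 TPM for LOX4.

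Summed over all 10 genes, the deposited TPM came to 665, 633 and 537 in wild type and to 418, 459 and 448 in h3.3ko;HTR5. The groups did not overlap, and the sum was 27.8% lower on the means (exact two-sided permutation p = 0.1, the smallest possible). The 4 lipoxygenase genes summed to 162, 168 and 134 TPM against 118, 121 and 122 TPM, 22.3% lower. With exon length the 10-gene sum was 26.6% lower and the lipoxygenase sum 21.3% lower. AOS and LOX2, with the highest levels, weigh most in the 10-gene sum. In exon-length TPM, LOX2 held 80.5% to 84.7% of the lipoxygenase sum in wild type and 74.4% to 76.4% in the line.

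Other genes of the pathway were read from 6 lists with 63 genes, of which 54 were expressed enough to be tested. Among these, 11 were called lower and 4 higher, against 8.32% and 3.70% of all tested genes, and their median log2 fold change was -0.03. Of 7 genes for the release and desaturation of linolenic acid, 5 were tested, with a median log2 fold change of 0.08. Among these 5 genes 1 was called lower and 1 higher, against the same 8.32% and 3.70%. PLIP2, a plastid lipase gene, was called higher, from 13.1, 6.71 and 8.23 TPM to 13.3, 16.6 and 19.8 TPM (limma adjusted p = 0.0323), with wild type replicate 1 just below the lowest library of the line. It was no longer called once replicate 2 or 3 of either genotype was left out (adjusted p = 0.0822 to 0.124). FAD8, a plastid desaturase gene that makes linolenic acid, fell from 97.7, 109 and 104 TPM to 86.5, 77.7 and 83.3 TPM (limma adjusted p = 0.0064), with no overlap. It overlaps AT5G05590 in the annotation, and how reads of the pair were counted is not stated. Its relative FAD7 stood at 249 ± 2.87 and 267 ± 5.19 TPM and was not called (limma adjusted p = 0.127).

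None of 8 genes for export and the peroxisomal steps was called by limma, against 12.0% of all tested genes. At an unadjusted p under 0.05 there were 0 of 8. Their limma adjusted p ran from 0.327 to 0.929, and their median log2 fold change was -0.02. KAT2, the thiolase gene of beta-oxidation, stood at 87.2 ± 0.738 and 92.1 ± 3.12 TPM, and ACX1, an acyl-CoA oxidase gene, at 64.6 ± 4.46 and 62.1 ± 0.793 TPM. AIM1, of the same spiral, which overlaps AT4G29000 in the annotation, stood at 38.7 ± 0.491 and 38.4 ± 0.768 TPM. Their 95% intervals of the log2 fold change all lay within -0.19 and 0.18.

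Against 8.32% of all tested genes called lower and 3.70% higher, the 5 genes of side branches had 0 and 1. Their median log2 fold change was -0.08. Of these LOX1, a lipoxygenase gene outside the jasmonate route, was called higher, at 42.9, 42.4 and 49.1 TPM against 50.9, 58.6 and 55.0 TPM (limma adjusted p = 0.0326). LOX1 overlaps AT1G55030, and it was no longer called with wild type replicate 1 or 2, or replicate 2 or 3 of the line, left out (adjusted p = 0.0785 to 0.110). OPR1 and OPR2, reductase genes related to OPR3 that overlap each other, stood at 115 ± 3.07 and 112 ± 7.38 TPM and at 21.8 ± 1.88 and 20.5 ± 2.21 TPM, and neither was called.

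Among 10 tested genes of conjugation and catabolism, 2 were called lower and none higher, against 8.32% and 3.70% of all tested genes. Their median log2 fold change was -0.28. CYP94B3, which hydroxylates and so inactivates the hormone conjugate, stood at 2.33, 1.73 and 2.41 TPM against 0.484, 0.789 and 1.32 TPM (limma adjusted p = 0.0349). JMT, which makes methyl jasmonate, stood at 3.92, 3.45 and 4.26 TPM against 1.58, 2.40 and 2.77 TPM (limma adjusted p = 0.0435). Both had groups that did not overlap, as did 20.4% of all tested genes with the line lower. Both calls were lost when any library but h3.3ko;HTR5 replicate 3 was left out (adjusted p = 0.0574 to 0.134). JAR1, the enzyme that joins jasmonate to isoleucine, stood at 49.5 ± 1.68 and 49.8 ± 1.99 TPM, with a 95% interval of the log2 fold change from -0.12 to 0.13.

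Of 21 tested genes of perception and signalling, 3 were called lower and 2 higher, against 8.32% and 3.70% of all tested genes. Their median log2 fold change was 0.02. MYC5, a transcription factor gene of stamen development, fell from 5.60, 8.70 and 7.37 TPM to 2.81, 3.50 and 2.96 TPM (limma adjusted p = 0.00285). JAZ1, a repressor gene, fell from 48.3, 37.8 and 37.5 TPM to 25.9, 27.2 and 24.3 TPM (limma adjusted p = 0.00236). Neither gene's groups overlapped, as in 20.4% of all tested genes with the line lower. JAZ6, another repressor gene, was called higher, at 33.2, 26.5 and 25.1 TPM against 31.2, 52.5 and 50.3 TPM (limma adjusted p = 0.0466), but its groups overlapped through replicate 1 of each genotype. Leaving out replicate 2 or 3 of either genotype ended the call (adjusted p = 0.137 to 0.163). The remaining calls were MYC4 (lower) and JAZ2 (higher), named after their values were seen. MYC4 lost its call without wild type replicate 1 or 3 or any library of the line (adjusted p = 0.0800 to 0.118), and JAZ2 when replicate 2 or 3 of either genotype was left out (adjusted p = 0.0820 to 0.0975). MYC2, the best known activator of the pathway, was listed at 0 in all 6 libraries. Its locus overlaps AT1G32630 over 98.5% of its span, and how reads of such pairs were counted is not stated.

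Of 8 genes that jasmonate induces, 5 were tested and all 5 were called lower, against 8.32% of all tested genes. Their median log2 fold change was -0.75, and the list was chosen with earlier results of these data known. CORI3, a gene induced by the jasmonate mimic coronatine, fell from 9.98, 9.5 and 7.22 TPM to 4.16, 3.90 and 3.52 TPM (limma adjusted p = 0.00118). CLH1, a chlorophyllase gene, fell from 71.0, 80.2 and 68.6 TPM to 42.6, 42.8 and 43.4 TPM (limma adjusted p = 0.000135). The defensin gene PDF1.2 fell from 29.5, 29.5 and 5.0 TPM to 0.694, 2.26 and 0 TPM (limma adjusted p = 0.00581), but not past the threshold under the robust option of limma (adjusted p = 0.0971). None of these 3 had overlapping groups, as in 20.4% of all tested genes with the line lower. PDF1.2 has near-identical copies, among which the counting may have split reads. The storage protein genes VSP1 and VSP2, named after their values were seen, were the other calls. VSP1 lost its call when wild type replicate 2 or 3, or replicate 1 or 3 of the line, was left out (adjusted p = 0.0692 to 0.0936). VSP2 lost its call when wild type replicate 2, or replicate 1 of either genotype, was dropped (adjusted p = 0.0508 to 0.0736).

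**Figure D4:**
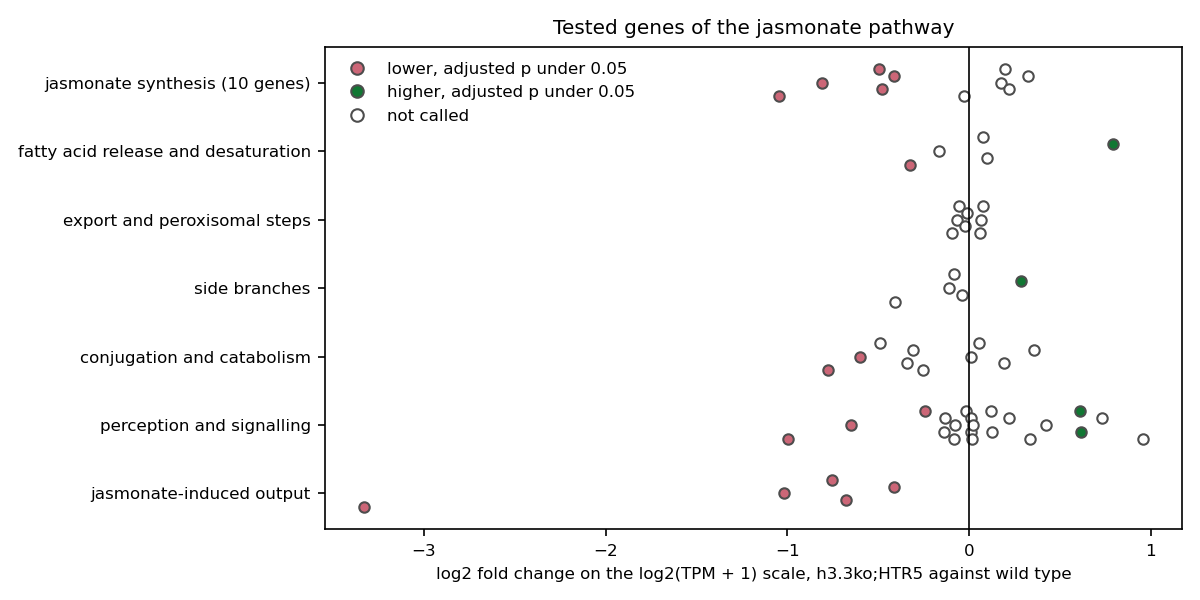
Log2 fold change of each tested gene in h3.3ko;HTR5 against wild type, on the log2(TPM + 1) scale, for the 10 synthesis genes and 6 lists of other jasmonate pathway genes. Each point is a gene, red where called lower, green where called higher and open where not called; vertical scatter within a list carries no value. The 5 tested induced genes and 5 of the 10 synthesis genes are red, and no gene of the export and peroxisomal list is coloured.

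The genes whose profile over the 6 libraries lay nearest to the mean profile of the 10 synthesis genes were AT4G39960, ABCB2, 4CL1, RGD3 and FMO GS-OX5. Likeness was the root mean square difference of log2(TPM + 1) profiles after subtracting each gene's wild type mean, and it was 0.0070 to 0.0217 for these 5 against a median of 0.202 over 19003 genes. Their levels were 14.6% to 15.3% lower in h3.3ko;HTR5. The mean profile averages genes that fell with genes that did not, so no single synthesis gene need follow it.

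Over 17 other settings, the calls of LOX2, AOC1, AOC2 and AOC3 held in all, and that of AOS in 16. The highest adjusted p of the first 4 was 0.0441, for LOX2. Of the other pathway genes, FAD8, MYC5, JAZ1, CORI3 and CLH1 kept their calls in all 17. JMT and MYC4 each lost theirs in 11, JAZ6 in 8, PLIP2, CYP94B3 and JAZ2 in 7, VSP1 in 6, LOX1 and VSP2 in 5, and PDF1.2 in 1. For CYP94B3 and JMT these include the minimum mean TPM of 5, where they were not tested.

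**Figure D5:**
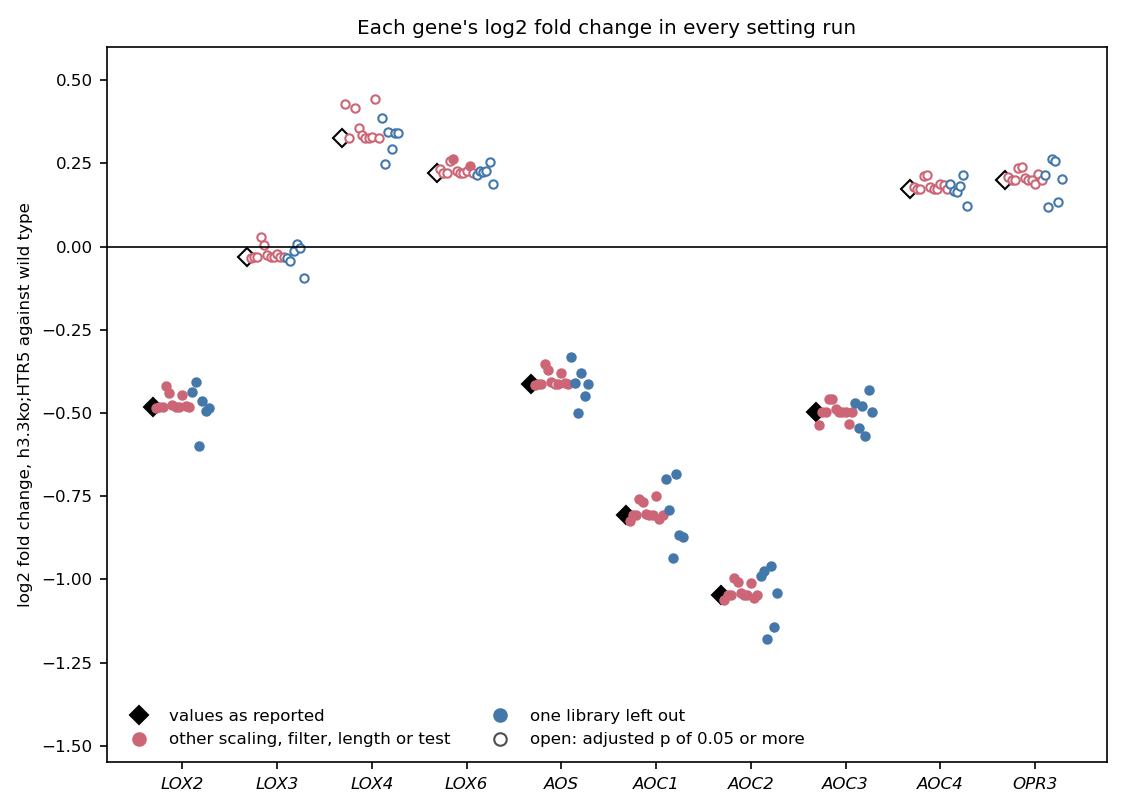
Log2 fold change of each of the 10 genes, h3.3ko;HTR5 against wild type, in each setting run. Black diamonds are the values as reported, red circles other scalings, filters, lengths or tests, and blue circles fits with 1 library left out; filled symbols have an adjusted p under 0.05. AOC2 stayed between -0.96 and -1.18 and LOX2 between -0.41 and -0.60, and LOX3 crossed 0.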

How the data were processed

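Whole-seedling RNA was sequenced from 3 wild type and 3 h3.3ko;HTR5 libraries. The values the authors deposited are TPM for 27655 genes, summing to 1000000 per library in a single table, although its columns are named as counts. The submitters' processing notes name the TAIR10 build and the tools DESeq2 1.26.0, HISAT2 2.1.10 and fastp 0.20.1. The sources used here do not give the counting tool or its strand setting. Identifiers were matched to TAIR10.1 (27445 genes, 99.2%). With full gene span as length, nearly every expressed gene (22980 of 22985, 99.98%) gave whole reads within 0.02 reads, and these reads gave the exon-length TPM. Deposited TPM thus set genes with long introns lower than exon length would, and levels of different genes were compared in exon-length TPM.

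The test was that of limma 3.58.1 (R 4.3.3), with a trend in the variance prior. It was run on log2(TPM + 1) for 19013 genes whose mean TPM reached 1, and p was adjusted over all of them. The members and lists were chosen with earlier results of these data known. In each list of other pathway genes the 3 called genes with the largest log2 fold changes were named, filled up with the highest expressed. The 5 genes most like the members were named too. Alternatives changed pseudocount, filter, scaling, length, test, replicate block and libraries. Sums were compared by exact permutation with scipy 1.17.1. Libraries of the same group lay further apart than counting alone gives, at 2.13 to 3.91 chi-square units per degree of freedom.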

Additional observations from a re-analysis of the deposited data

How the results depend on the processing

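The direction of every synthesis gene but LOX3 held in the 17 alternatives (16 for LOX4, which a minimum mean TPM of 5 leaves out). LOX3 turned to 0.0285 under quantile normalization and to 0.0052 under median-of-ratios scaling, ran from -0.0931 to 0.0078 with 1 library left out, and was called in none. With any 1 library left out, 5 synthesis genes were called lower and 0 higher. The log2 fold changes then lay between -1.18 and -0.96 for AOC2, -0.93 and -0.68 for AOC1, -0.57 and -0.43 for AOC3, -0.60 and -0.41 for LOX2, and -0.50 and -0.33 for AOS. The 10-gene sum was 0.681 to 0.755 of wild type, the cyclase sum 0.584 to 0.653 and the lipoxygenase sum 0.730 to 0.812. LOX6 made 1 call higher among the synthesis genes with voom and with median-of-ratios scaling.

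Over all genes, 935 to 1341 were called lower and 354 to 753 higher with 1 library left out, against 1582 and 703 with all 6, and 1029 and 414 without a trend. Lower genes made up 1170 of 2182 calls after quantile normalization and 1245 of 2212 after median-of-ratios scaling. Among the other pathway genes, calls with 1 library left out ranged from 6 to 10 lower and 0 to 7 higher. They ranged from 0 to 2 lower for catabolism, 3 to 5 lower for induced genes, 0 to 5 higher for signalling, 0 to 1 higher for fatty acid release, and 0 to 1 in each direction for side branches. With no filter 1 pathway gene was called higher, with 0 in fatty acid release, 0 in signalling and 1 lower in catabolism. With a mean TPM of at least 5, 0 catabolism genes were lower. After quantile normalization 7 pathway genes were lower, with 2 higher in fatty acid release and 0 lower in catabolism, and median-of-ratios scaling left 1 in catabolism. Exon-length TPM, voom and the replicate block each added 1 lower side branch gene. Without a trend 7 pathway genes were lower and 0 higher, with 0 higher in fatty acid release, side branches and signalling, 1 lower in catabolism and 3 lower among induced genes. With the robust option 1 was higher, with 0 in fatty acid release, 0 in signalling and 3 lower among induced genes. Voom gave 4 higher in signalling. The cause of these changes was not tested.

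Deviations from the group means were correlated over genes at -0.043, 0.024 and -0.012 for libraries of the same number, 1 to 3. Libraries of unlike numbers gave -0.055 to 0.060. Such values show no sign of pairing but cannot tell whether same-numbered libraries were handled together. With a replicate block 5 synthesis genes stayed lower, 1304 genes in all were lower and 547 higher, 1 gene was higher in signalling and 1 lower in catabolism.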
